A study of Mus musculus with 6 samples.

Results

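The 9 genes described here encode enzymes and a carrier that take long-chain fatty acids into mitochondria, oxidize them there and turn the product into ketone bodies. They were chosen by gene name as a pathway list: Cpt1a, Slc25a20 and Cpt2 of the carnitine shuttle, Acadvl, Acadl and Acadm among the acyl-CoA dehydrogenases, Hadha and Hadhb of the trifunctional protein, and Bdh1 of ketone body synthesis. All 9 were found, out of 20416 genes with probe sets of their own, and all 9 passed the filter on dim genes, which left 15312 genes tested. A probe set is a short group of array probes read together, and 110 probe sets named 1 of these 9 genes alone.

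The arrays came from primary hepatocytes of adult C57BL/6 mice. The miR-143DOX group held 3 mice with a transgenic allele from which doxycycline induces the microRNA miR-143, and the control group held 3 wildtype littermates. Mice of both groups drank doxycycline (4 mg/ml, with 10% sucrose) for 8 days, so the controls received the drug without the allele. The 6 samples are biological replicates in the labels, called mice here, with 1 Affymetrix array each, the promoter that drives the allele is not given in the labels, and the level of miR-143 was not analysed here.

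Liver mitochondria burn fatty acids when glucose is scarce. Cpt1a on the outer membrane joins a long-chain fatty acid to carnitine, the carrier Slc25a20 moves the acylcarnitine across the inner membrane in exchange for free carnitine, and Cpt2 frees the acyl-CoA inside. Acyl-CoA dehydrogenases for very long, long and medium chains start each round of oxidation, the trifunctional protein completes it for long chains, and the hepatocyte sends much of the resulting acetyl-CoA out as acetoacetate and 3-hydroxybutyrate. Several of these genes are textbook targets of the fatty acid receptor PPARalpha, which binds repeats of the element AGGTCA.

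The starts of Hadha and Hadhb lie 272 bases apart on opposite strands of chromosome 5, so that 1 stretch of DNA serves as the upstream region of both subunits. The window of 250 bases before to 50 after the start (RefSeq, GRCm38.p6) was read for all 9 members, 10 windows in all since Bdh1 had 2. For Cpt1a it lies downstream of the outermost start of the gene, base 3322326 of chromosome 19, whose own window was not read. The Hadhb window is printed with the 228 bases that it shares with the Hadha window in capitals, and the Acadm and Cpt1a windows, those of the members with the highest and the lowest difference between the groups, with AGGTCA on either strand in capitals.
Hadhb, chr5:30155003-30155302, plus strand: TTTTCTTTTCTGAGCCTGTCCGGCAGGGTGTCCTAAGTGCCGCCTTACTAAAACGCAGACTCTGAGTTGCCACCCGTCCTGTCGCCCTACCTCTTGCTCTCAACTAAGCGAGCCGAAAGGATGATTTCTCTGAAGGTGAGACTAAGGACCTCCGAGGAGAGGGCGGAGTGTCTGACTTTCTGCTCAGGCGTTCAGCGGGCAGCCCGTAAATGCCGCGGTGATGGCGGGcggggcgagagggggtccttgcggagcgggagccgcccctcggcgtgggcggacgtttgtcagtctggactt
Acadm, chr3:153944594-153944893, minus strand: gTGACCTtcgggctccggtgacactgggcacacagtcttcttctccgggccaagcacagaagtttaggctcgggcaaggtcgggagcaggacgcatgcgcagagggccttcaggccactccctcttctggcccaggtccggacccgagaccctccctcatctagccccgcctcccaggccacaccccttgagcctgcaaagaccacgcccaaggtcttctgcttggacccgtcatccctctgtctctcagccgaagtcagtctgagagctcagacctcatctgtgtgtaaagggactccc
Cpt1a, chr19:3323051-3323350, plus strand: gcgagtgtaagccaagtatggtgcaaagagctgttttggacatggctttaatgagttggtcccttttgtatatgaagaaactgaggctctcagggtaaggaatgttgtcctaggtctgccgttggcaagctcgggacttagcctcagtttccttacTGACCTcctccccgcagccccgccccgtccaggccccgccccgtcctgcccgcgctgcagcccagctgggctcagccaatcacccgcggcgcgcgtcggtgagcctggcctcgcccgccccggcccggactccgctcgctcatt

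The element AGGTCA was found in 3 of the 10 windows, once each in Acadm, Acadvl and Cpt1a, against 16.3% of 32851 windows of all genes. Its direct repeat, 2 copies of AGGTCA with any 1 base between them, was in 0 of the 10 and in 0.0396% of all windows. The GC box GGGCGG was in 7 of the 10, against 35.7% of all windows. The 10 windows are not all separate, since the 1 GC box of the Hadha window is the same site as 1 of the 4 in the Hadhb window. Every search covered both strands, and a match describes letters in a window and not a bound site.

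None of the 9 members passed 5% false discovery rate (FDR) between miR-143DOX and control hepatocytes in limma's moderated test. Over all 15312 genes tested 0% passed, each member's adjusted p was 1, and the smallest adjusted p of any gene was 0.735 (0.0609 without miR-143DOX mouse 3). The count of members at an unadjusted p under 0.05 was also 0, against 1.38% of all genes higher and 1.68% lower in miR-143DOX. The differences were small. From Cpt1a at -0.20 to Acadm at 0.27, on the log2 scale as miR-143DOX minus control, they had a median of 0.11, beside 0.00829 for all genes. Of the 9 members 8 lay above 0, as did 52.4% of all genes, and Cpt1a lay below it. The groups did not overlap for 2 members, Acadm and Hadha, both higher in miR-143DOX. Of all genes, 3.4% were separate in that direction and 3.73% in the other. The 95% intervals of all 9 differences included 0. The narrowest was that of Hadha, -0.20 to 0.35, and the widest that of Bdh1, -0.28 to 0.70.

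**Figure D1:**
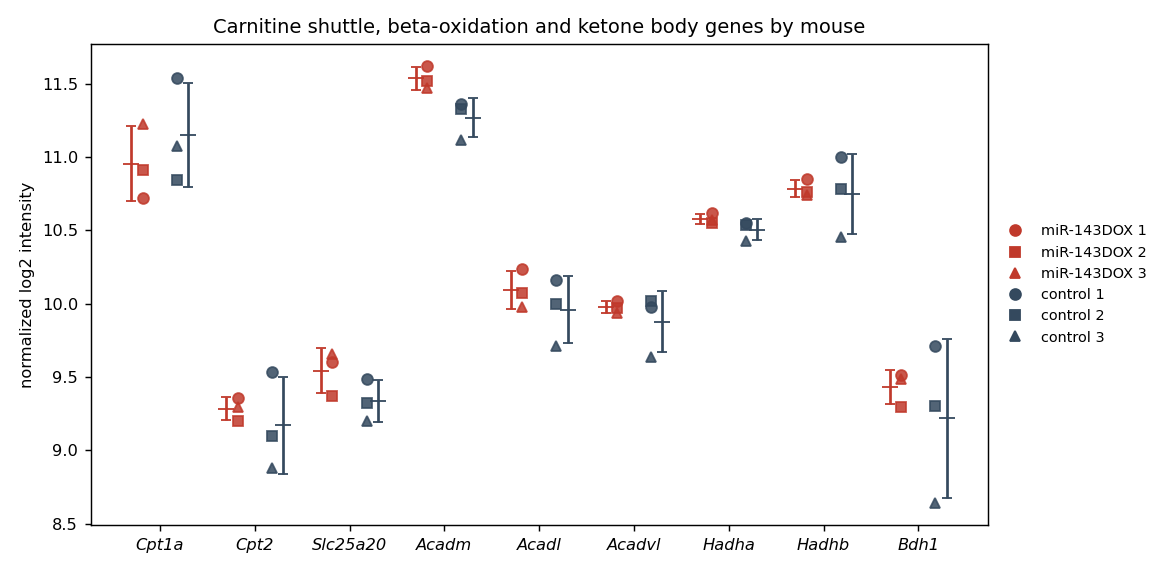
Normalized log2 intensity of the 9 members in each mouse, with miR-143DOX at the left and control at the right of each gene; the bars beside the points give the mean ± SD of 3 mice. The groups are separate for Acadm and Hadha and overlap for the other 7 genes.

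Within the carnitine shuttle, the entry step and the later steps lay on opposite sides of 0. Cpt1a, the rate-limiting transferase of the pathway, measured 10.72, 10.91 and 11.23 (log2 intensity) in miR-143DOX mice 1 to 3, against 11.54, 10.84 and 11.07 in control mice 1 to 3. The highest and the second lowest value were both in control mice, so the groups overlapped. Cpt1a averaged 10.95 ± 0.26 in miR-143DOX and 11.15 ± 0.35 in control (SD, n = 3 each), a log2 difference of -0.20 with a 95% interval of -0.62 to 0.22 (0.873-fold). That difference rested on control mouse 1, and without that array it was -0.002.

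The carrier Slc25a20 measured 9.61, 9.37 and 9.65 in miR-143DOX mice, against 9.49, 9.32 and 9.20 in control mice. Its 2 highest values were in miR-143DOX mice 1 and 3, while miR-143DOX mouse 2 fell among the controls. The log2 difference was 0.21 with an interval of -0.10 to 0.52 (1.16-fold, limma unadjusted p = 0.168 and adjusted p = 1). Cpt2, the inner transferase, measured 9.36, 9.20 and 9.30 in miR-143DOX mice, against 9.53, 9.10 and 8.88 in control mice. Control mice held both its highest and its lowest value, with an SD of 0.33, against 0.079 among miR-143DOX mice (n = 3 each). The Cpt2 difference was 0.11 with an interval of -0.25 to 0.48, and without control mouse 3 it was -0.031.

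The medium-chain dehydrogenase gene Acadm had the smallest p of the 9. It measured 11.62, 11.52 and 11.47 (log2 intensity) in miR-143DOX mice, against 11.36, 11.33 and 11.12 in control mice, so each miR-143DOX mouse lay above each control mouse. Acadm averaged 11.54 ± 0.077 in miR-143DOX and 11.27 ± 0.13 in control (SD, n = 3 each), a log2 difference of 0.27 with an interval of -0.024 to 0.56 (1.2-fold). In limma the unadjusted p was 0.0689 and the adjusted p was 1. With single arrays left out the difference ran from 0.19, without control mouse 3, to 0.32, without control mouse 1.

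The other dehydrogenases overlapped between the groups. Acadl, for long chains, measured 10.23, 10.07 and 9.98 in miR-143DOX mice, against 10.16, 10.00 and 9.71 in control mice. Its log2 difference was 0.13 with an interval of -0.20 to 0.47. Only control mouse 3 stood below all miR-143DOX mice, and the difference without that array was 0.011. Acadvl, the very-long-chain enzyme of the inner membrane, measured 10.02, 9.97 and 9.94 in miR-143DOX mice, against 9.98, 10.02 and 9.64 in control mice. Its difference was 0.098 with an interval of -0.21 to 0.41, and it was -0.021 without control mouse 3, again the lowest array. Another 11 probe sets named Acadvl together with Dvl2 and were not used for the gene; 7 of them lay above 0, with a median difference of 0.037.

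The genes of the trifunctional protein stayed close together. Hadha, whose product carries the hydratase and the long-chain hydroxyacyl-CoA dehydrogenase, measured 10.62, 10.55 and 10.57 in miR-143DOX mice, against 10.55, 10.54 and 10.42 in control mice. The groups were separate, but miR-143DOX mouse 2 and control mouse 1 were equal at 2 decimals. Hadha differed by 0.076 on the log2 scale with an interval of -0.20 to 0.35 (1.05-fold, unadjusted p = 0.56 in limma's test), and by 0.035 without control mouse 3. Hadhb, the thiolase subunit, measured 10.85, 10.76 and 10.74 in miR-143DOX mice, against 11.00, 10.78 and 10.46 in control mice. Its controls spanned all the miR-143DOX values, and its difference of 0.036 had an interval of -0.30 to 0.38 and was -0.11 without control mouse 3. Although both genes share the upstream stretch printed above, their Pearson r over the 6 arrays, 0.769, was lower than that of Hadhb with Bdh1, 0.954, and no test was made of that gap.

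Bdh1, the mitochondrial enzyme that reduces acetoacetate to 3-hydroxybutyrate, varied more among control mice than any other member. It measured 9.51, 9.30 and 9.49 in miR-143DOX mice, against 9.71, 9.30 and 8.64 in control mice. Control mice held both its highest and its lowest value. Bdh1 averaged 9.43 ± 0.12 in miR-143DOX and 9.22 ± 0.54 in control (SD, n = 3 each), a log2 difference of 0.21 with an interval of -0.28 to 0.70. The difference turned to -0.077 without control mouse 3 and was 0.46 without control mouse 1, where Bdh1 was the 1 member at an unadjusted p under 0.05 (0.0386, adjusted p = 0.969 in limma).

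**Figure D2:**
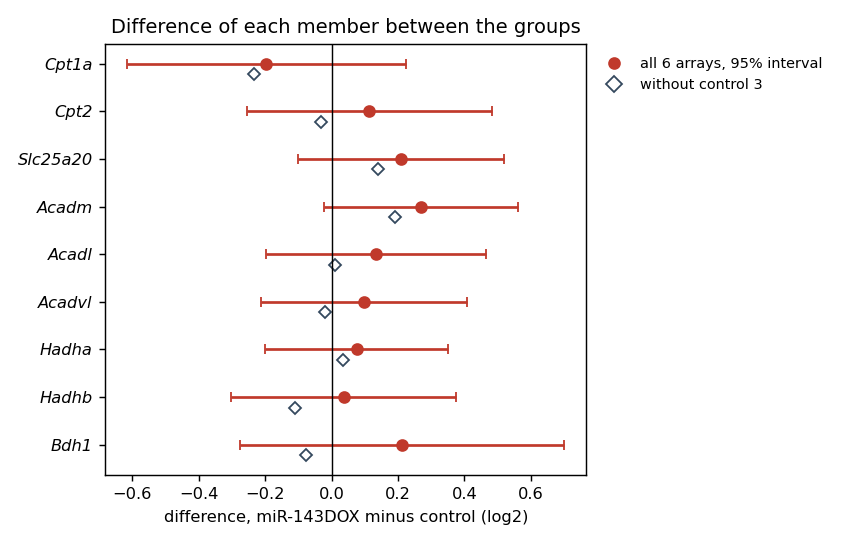
Difference of each member between the groups (log2, miR-143DOX minus control); circles with bars are the limma estimate with its 95% interval over all 6 arrays, and open diamonds the estimate without control 3. All 9 intervals include 0, and without control 3 the estimates of Cpt2, Acadvl, Hadhb and Bdh1 lie below 0 beside that of Cpt1a.

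Control mouse 3 decided most of the direction. It had the lowest value of 8 of the 9 members, all but Cpt1a, and control mouse 1 had the highest of 4. The mean deviation of the members from their own averages was 0.092, -0.006 and 0.073 in miR-143DOX mice 1 to 3, against 0.179, -0.053 and -0.285 in control mice 1 to 3 (log2). The miR-143DOX mice thus lay inside the span of the controls. Without control mouse 3, 4 of the 9 members lay above 0 and their median difference was -0.021, in place of 8 and 0.11. The same mouse was lowest for the 28 other genes of mitochondrial beta-oxidation, at -0.168 against -0.043 to 0.163 in the other 5 mice, for the other ketone body genes, at -0.192, for the peroxisomal list, at -0.22, for the mitochondrial reference genes described below, at -0.087, and for the erythroid gene Alas2, at -0.366. In the 13 hepatocyte markers it was the highest, at 0.172 against -0.116 to 0.086 in the others. Serpina1a and Cyp3a11 lay 1.36 and 1.01 above their own means in that mouse. These 2 genes were picked because they lay farthest above their means there, so leaving them out had to lower that mouse's average. The other 11 then averaged -0.013 there, against -0.085 to 0.05 in the other mice, and nothing is concluded from that. Fewer hepatocytes and less RNA of a gene per hepatocyte cannot be told apart in such bulk samples, and what part the makeup of this sample had in the members' values was not tested.

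**Figure D3:**
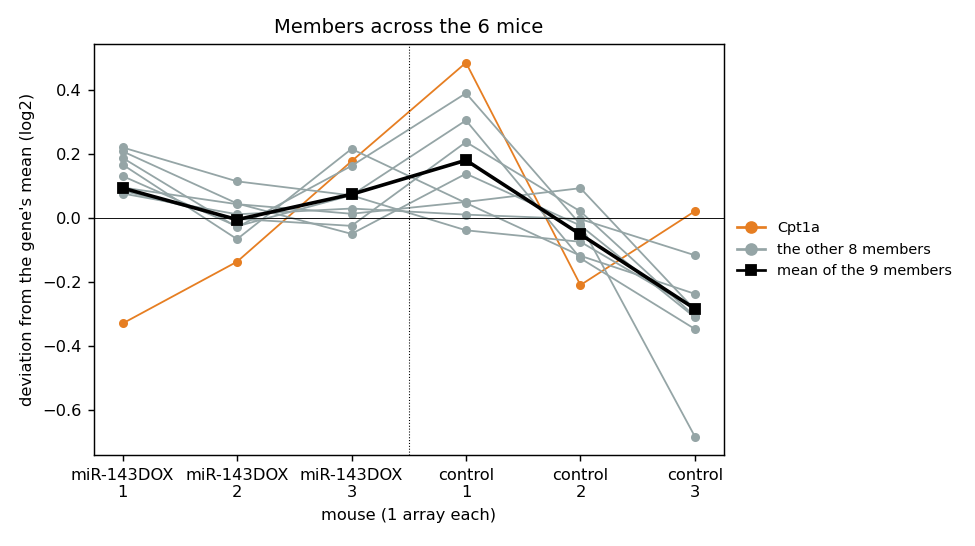
Deviation of each member from its own mean (log2) in the 6 mice, with miR-143DOX mice at the left; grey lines are the 8 members other than Cpt1a, orange is Cpt1a and black is the mean of the 9. The grey lines all reach their lowest point in control 3, while Cpt1a is lowest in miR-143DOX 1 and highest in control 1.

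Over all 6 arrays the members other than Cpt1a correlated with each other, largely through their low values in control mouse 3. Over the 36 pairs of members the Pearson r across the 6 arrays ran from -0.327 to 0.954, with a median of 0.776, and 32 pairs lay above 0. All 4 negative pairs held Cpt1a. With the mean of the other 8 members, Bdh1 had an r of 0.984 and Cpt2 of 0.974, while Cpt1a had 0.116. These values describe 6 arrays that share 1 normalization, and they lean on control mouse 3. Without it 27 of the 36 pairs lay above 0, with r from -0.635 to 0.969 and a median of 0.294. The negative pairs then no longer all held Cpt1a. Over all genes tested the median r with the members' mean profile was 0.128, and 2% of genes had an r over 0.9. The 5 other genes with the most similar profile were Mrps28 (r = 0.998), Pcyt1a (0.993), Usp22 (0.991), Abtb1 (0.99) and Nfkbil2 (0.989), each over 6 arrays. Mrps28 encodes a protein of the mitochondrial ribosome, Pcyt1a an enzyme of phosphatidylcholine synthesis and Usp22 a ubiquitin protease. Their differences between the groups, 0.081 to 0.17 on the log2 scale, did not pass the test either (adjusted p = 1 each in limma).

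The probe sets within a gene are not replicates of it. The gene's value is their mean, so that most of them shared its direction is largely built in. Of the 110 probe sets of the members, 109 passed the filter on dim probe sets, and 0 passed 5% FDR over all 159073 probe sets tested, where 0% did. The lowest adjusted p was 0.997. For Acadm 9 of 9 lay above 0, from 0.16 to 0.37, with 5 separate between the groups, and for Cpt1a 18 of 19 lay below 0, down to -0.66, with 1 separate. Of all probe sets tested, 4.35% were separate and higher in miR-143DOX and 4.53% separate and lower. The brightest Cpt1a probe sets lay near 0, at -0.004, -0.079, -0.048, -0.091, 0.017 and -0.068. The Cpt1a probe set at -0.66 was dimmer and had an unadjusted p of 0.378 in limma. Bdh1 had 6 of 7 above 0, Cpt2 4 of 5, Slc25a20 8 of 10, Acadl 9 of 12, Acadvl 8 of 11 and Hadhb 12 of 16. Hadha was the most divided by range, with 14 of 21 above 0 and values from -0.42 to 0.69. Of its probe sets 3 were separate and higher in miR-143DOX, and 1, that at -0.42, separate and lower. The probe set at 0.69 was its dimmest, at a mean level of 6.36, and overlapped between the groups. Of the 109 that passed the filter 70 lay above 0, beside 50.8% of all probe sets tested. At an unadjusted p under 0.05 the members had 0 probe sets higher in miR-143DOX, against 2.02% of all.

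**Figure D4:**
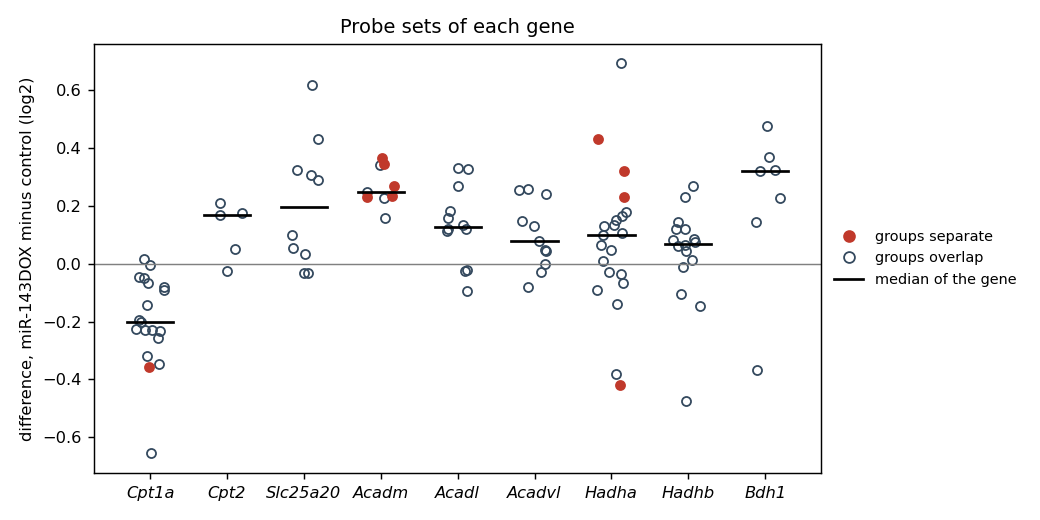
Difference between the groups (log2, miR-143DOX minus control) of each probe set of the 9 members; filled points are probe sets whose groups are separate, open points overlap, and the bar is the median of the gene. The 9 probe sets of Acadm all lie above 0, and 18 of the 19 of Cpt1a lie below it.

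Of the other 28 genes of mitochondrial fatty acid oxidation, 20 lay above 0 and 8 below, beside 52.4% of all genes above it. The median difference of the list was 0.076, but -0.039 without control mouse 3, and 0 passed 5% FDR. Carnitine acetyltransferase, Crat, which moves short acyl groups between carnitine and CoA, measured 8.70, 8.72 and 8.38 in miR-143DOX mice, against 8.08, 7.88 and 8.14 in control mice. Its groups were separate, with a log2 difference of 0.56 (interval 0.24 to 0.89, 1.48-fold, unadjusted p = 0.00242 and adjusted p = 1 in limma). The difference stayed between 0.49 and 0.68 with any 1 array left out. The muscle form Cpt1b was separate the other way, at 5.26, 5.97 and 5.74 in miR-143DOX mice, against 6.22, 6.16 and 6.24 in control mice, a difference of -0.55 from 2 probe sets (unadjusted p = 0.00851, adjusted p = 1). Without miR-143DOX mouse 1 the Cpt1b difference was -0.35. Cpt1b was dim, at percentile 27.5 of level among the genes tested, and the filter on dim genes stood at 5.06. These were the 2 genes of the list at an unadjusted p under 0.05 in limma, 1 higher and 1 lower, against 1.38% and 1.68% of all genes.

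The other genes named from that list overlapped between the groups. Etfdh, which passes electrons from the dehydrogenases to ubiquinone, had a log2 difference of 0.24 (standard error 0.14), and the short-chain enzymes Hadh and Acads by 0.18 (0.16) and 0.16 (0.18). The thiolase gene Acaa2 differed by 0.13 (0.16). Acad11 stood at -0.31 (0.19). With control mouse 3 left out Hadh was 0.043, Acads -0.002 and Acaa2 -0.014. Etfdh was 0.16 without miR-143DOX mouse 1, and Acad11 was -0.14 without control mouse 1 and 0.19 with its brightest probe set.

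The other ketone body genes numbered 6 tested, of which 4 lay above 0, beside 52.4% of all genes. Their median was 0.151, with 0 past 5% FDR or an unadjusted p under 0.05 in limma. The mitochondrial thiolase Acat1 had a log2 difference of 0.15 (standard error 0.15), the cytosolic Bdh2 by 0.36 (0.24), the monocarboxylate transporter Slc16a1 by 0.19 (0.17) and Oxct1, which serves ketone use outside the liver, by 0.16 (0.14). Without 1 array, Acat1 was 0.017 (control mouse 3), Slc16a1 0.033 (control mouse 1) and Oxct1 0.058 (miR-143DOX mouse 1). Oxct1 was dim, at percentile 17.5 of level among the genes tested. Bdh2 measured 8.54, 8.28 and 8.29 in miR-143DOX mice, against 8.51, 8.15 and 7.36 in control mice. Its lowest value was in control mouse 3, as for Bdh1, and without that array the difference was 0.041.

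Among 19 regulators of the pathway 13 lay above 0, beside 52.4% of all genes, with a median of 0.038, and 0 passed 5% FDR. The receptor gene Ppara averaged 9.75 ± 0.20 log2 units among miR-143DOX mice and 9.68 ± 0.39 among control mice (SD, n = 3 each), a difference of 0.078 (standard error 0.19) that was -0.059 without control mouse 2. Its coactivator gene Ppargc1a measured 6.89, 6.45 and 6.41 in miR-143DOX mice, against 7.64, 6.95 and 6.78 in control mice. With the overlap of 1 mouse, that was a difference of -0.54 (unadjusted p = 0.0278, adjusted p = 1 in limma), and it was -0.28 without control mouse 1 and -0.18 with the brightest probe set. Pdk4, a kinase that shuts off pyruvate oxidation, differed by 0.69 (0.34) but by 0.17 without miR-143DOX mouse 1. Angptl4 and Rxra, a PPARalpha target and its partner receptor, stood at -0.41 (0.22) and -0.22 (0.14), and Rxra at 0.018 with the median over its probe sets. Without control mouse 1 they were -0.23 and -0.14. Acetyl-CoA carboxylase 2, Acacb, makes the malonyl-CoA that inhibits Cpt1a, and malonyl-CoA decarboxylase, Mlycd, removes it. Acacb differed by 0.21 (0.24) and Mlycd by -0.048 (0.17), and both signs turned without control mouse 1, to -0.089 and 0.151.

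Peroxisomes shorten very long chains by a parallel pathway. Of its 14 genes tested 9 lay above 0, beside 52.4% of all genes, with a median of 0.151. In limma 3 lay higher at an unadjusted p under 0.05, against 1.38% of all genes, and 0 passed 5% FDR. The 3 were Acaa1b (0.54, standard error 0.14), the fatty acid transporter Abcd2 (1.01, 0.28) and the carnitine octanoyltransferase Crot (0.40, 0.18, and 0.25 without control mouse 1). Abcd2 and Crot overlapped between the groups. Abcd2 stood at percentile 38.4 of level among the genes tested and was 0.75 without miR-143DOX mouse 1. With the median over its probe sets Acaa1b was 0.33. Hsd17b4 and Ehhadh, which carry the middle steps, differed by 0.21 (0.14) and 0.33 (0.23), Ehhadh by 0.081 without miR-143DOX mouse 1 and Hsd17b4 by 0.11 without control mouse 3. The difference between the mitochondrial and peroxisomal lists was not tested. As a reference for mitochondria, 15 genes of the citric acid cycle, protein import and folding, outer membrane channels, cristae and mitochondrial DNA had a median of -0.000253, with 7 above 0 and 0 past 5% FDR or an unadjusted p under 0.05. Cs differed by 0.24 (0.17), Hspa9 by 0.17 (0.13), Tfam by -0.23 (0.14) and Idh3a by -0.15 (0.14). Without miR-143DOX mouse 1 Cs was 0.094 and Idh3a -0.071.

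**Figure D5:**
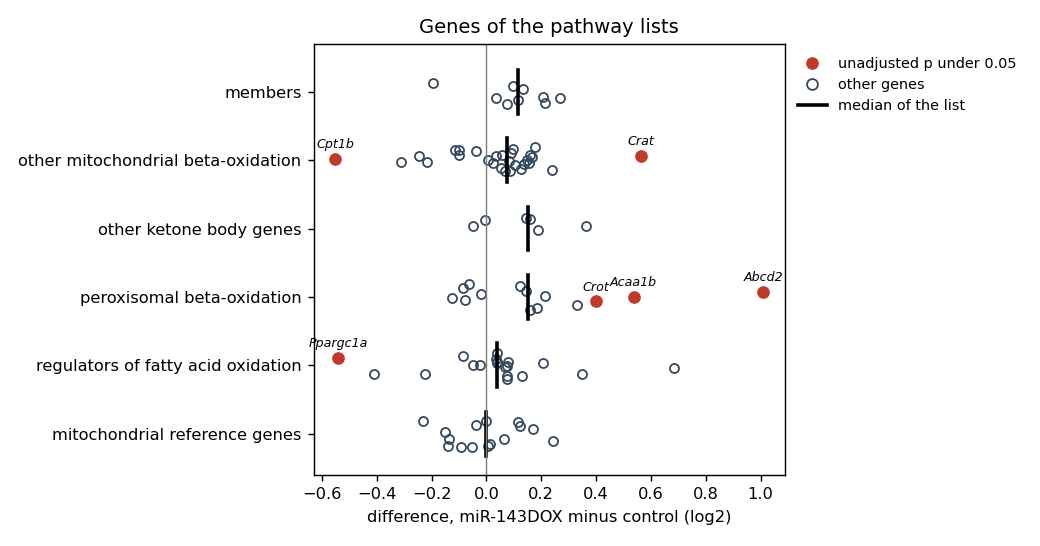
Difference between the groups (log2, miR-143DOX minus control) of each tested gene of the 9 members and of 5 other lists; filled, named points have an unadjusted p under 0.05 in limma, and the bars are list medians. No member is filled, and the filled points are Crat and Cpt1b, Acaa1b, Abcd2 and Crot, and Ppargc1a.

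The arrays carried hepatocyte RNA. Albumin, Alb, averaged 14.42 ± 0.082 log2 units among miR-143DOX mice and 14.37 ± 0.23 among control mice (SD, n = 3 each), and the median difference of 13 hepatocyte markers was 0.014. Serpina1a, read by 1 probe set, was the marker farthest from 0 at -0.98 (limma unadjusted p = 0.0218, adjusted p = 1). Summed linear intensities of the hepatocyte markers ran from 118700 to 125000 in miR-143DOX and from 113600 to 133200 in control. For 11 sinusoidal endothelium markers the sums were 1969 to 2769 in miR-143DOX and 2539 to 2733 in control, with 10 of 11 below 0 and a median of -0.12. For 11 Kupffer cell markers they were 1616 to 2174 in miR-143DOX and 1710 to 1842 in control, with 8 of 11 above 0. For 11 stellate cell markers they were 1461 to 1777 in miR-143DOX and 1402 to 1653 in control. For 6 cholangiocyte markers they were 321.3 to 355.8 in miR-143DOX and 301.3 to 370.3 in control. The sums of 7 lymphocyte, 5 neutrophil and 2 erythroid markers were at most 285.9, 171.3 and 753.7 in miR-143DOX, against 252.8, 166.9 and 740 in control. Array intensities have no true 0, so no marker can be called absent here, and the part of these cells in the members' values was not tested. The 6 arrays correlated at r of 0.936 to 0.954 over probe sets.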

How the data were processed

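The deposited log2 values of 6 arrays were used, 234873 probe sets in all; the log base was taken from their span, 1.6 to 15.2. Per the labels' protocols, Trizol RNA was labelled by the whole transcript sense target method for Affymetrix arrays. Partek is named, with no version, per the submitters' processing notes, and the sources used here do not state how the authors corrected and normalized the log2 values. The array percentiles differed by up to 0.135, over the limit of 0.1, so values were quantile normalized. A gene was the mean of the probe sets that the platform annotation gives to it alone, and the lowest 25% of genes by mean over the arrays (5104) were left out. The test between groups was that of limma 3.58.1 under R 4.3.3 (lmFit, eBayes, group only, two-sided, Benjamini-Hochberg over all genes or probe sets). Of these steps only the limma fit was tested on simulated data, with independent noise and changes larger than the difference of any member.

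The members and lists were chosen with earlier results of these data known. Of each other list, the 4 genes of lowest unadjusted p are named together with a fixed set, with the 5 genes of most similar profile and the clock genes Dbp and Arntl. Alternatives were other scalings, filters and probe set summaries, an intensity trend, array weights, the replicate number, a clock covariate and each array left out. Lists were described, not tested. The number of arrays limits the precision. Mice were numbered as in the labels.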

Additional observations from a re-analysis of the deposited data

How the results depend on the processing

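Over 10 other settings of scaling, filter, probe set summary and model, 0 genes and 0 members passed 5% FDR, 0 members had an unadjusted p under 0.05, and the members' median difference lay between 0.095 and 0.181. Member probe sets were fitted in 2 other settings, the deposited values and no filter on dim probe sets, and 0 passed. With each array left out 0 genes and 0 members passed, members at an unadjusted p under 0.05 numbered 0 to 1, and the median lay between -0.021 and 0.235. Over the same fits the difference reached 0.295 for Cpt2, 0.169 for Acadvl, 0.163 for Hadhb and 0.459 for Bdh1. Medians of the lists ran from -0.039 to 0.164 (other mitochondrial genes), -0.037 to 0.068 (regulators), -0.062 to 0.044 (mitochondrial reference genes), 0.072 to 0.207 (other ketone body genes) and 0.081 to 0.204 (peroxisomal genes). Without control replicate 3 the sign turned for Cpt2 (-0.031), Acadvl (-0.021), Hadhb (-0.11), Bdh1 (-0.077), the members' median (-0.021) and the median of the other mitochondrial list (-0.039). The median of the regulators turned to -0.037 without miR-143DOX replicate 3 and was 0.153 with the brightest probe set, and that of the mitochondrial reference genes, near 0, turned to 0.058 with the brightest probe set, 0.044 when miR-143DOX replicate 2 was left out and 0.013 when control replicate 1 was. The cause was not tested in these cases. With its brightest probe set Cpt1a differed by -0.004, and with the clock covariate by -0.06. Genes at an unadjusted p under 0.05 numbered 469, 1021 with array weights, and 300 to 1128 with an array left out (the highest without miR-143DOX replicate 3).

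The replicate number is shared by the groups in the labels. Same-numbered arrays deviated together at r of 0.107, 0.047 and 0.296 over genes, so the numbers were not taken as pairs. With the replicate number as a block 0 genes and 0 members passed and Acadm differed by 0.268 (limma unadjusted p = 0.0523).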

Other observations

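Cpt1a followed the clock genes from mouse to mouse, a relation looked for after the values were seen. The share of all genes tested with a similar relation is not given here, so the relation cannot be called particular to Cpt1a. Dbp, a clock output gene, measured 6.99, 8.14 and 9.35 (log2) in miR-143DOX mice 1 to 3, against 10.08, 8.06 and 8.04 in control mice 1 to 3, and Arntl, which encodes BMAL1 of the core loop, 8.24, 7.25 and 6.35 in miR-143DOX mice, against 5.56, 7.80 and 7.19 in control mice. Neither passed the test between the groups (limma adjusted p = 1 each). Over the 6 arrays Cpt1a correlated with Dbp minus Arntl at Pearson r = 0.974 (exact two-sided permutation p = 0.00556, adjusted p = 0.05 over the 9 members) and Spearman rho = 0.943 (exact permutation p = 0.0167, adjusted p = 0.15). Without miR-143DOX mouse 1 and control mouse 1, the arrays farthest from the median of that measure, r was 0.898 over 4 arrays. Neither correlation had an adjusted p under 0.05. The relation was not tested within the groups, where Cpt1a had the same order as Dbp minus Arntl over the 3 mice of each. For the other 8 members r ran from -0.225 (Acadm) to 0.461 (Cpt2), with adjusted p of 0.86 to 0.931 in the same exact permutation test.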
